A study of Homo sapiens with 4 samples.

Results

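The interleukin 1 family and its receptors were followed through 4 conditions of a glioblastoma cell line. The set holds 10 genes of 19775 with a named probe set: the ligand genes IL1A, IL1B, IL33, IL18 and IL37, the antagonist gene IL1RN, and the receptor genes IL1R1, IL1R2, IL1RAP and IL1RL1. All probe sets that the platform annotation assigns to 1 of these genes alone were taken, 23 of 41091 such probe sets. The genes were chosen by their signals in all 4 conditions, which were already known, so those signals are given as a description, without a test.

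The cells were U87TR-Da, a derivative of U87MG, an established human glioblastoma line. DACH1, a nuclear protein that represses transcription, is induced or silenced in them. The 4 conditions were DACH1-induced and DACH1-silenced cells in the medium labelled NBE (Neurobasal without serum, with the N-2 and B-27 supplements and the growth factors EGF and bFGF), and DACH1-induced and DACH1-silenced cells in the medium labelled DMEMF (DMEM with 10% FBS). Total RNA of each condition went onto 1 array, so no condition was replicated. Every sample carries the same treatment line of 1 µg/mL doxycycline for 72 h, the silenced ones included, so the handling of the silenced cells is not clear from the labels, which also do not say whether the line is a single clone.

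Interleukin 1 alpha and beta are inflammatory cytokines that bind the receptor IL1R1. IL1RAP, the accessory receptor chain, then joins the complex, and the adaptor MYD88 and the IRAK kinases carry the signal to NF-kB and AP-1. IL1RN occupies IL1R1 without signalling, IL1R2 binds ligand as a decoy, and IL33 acts through its own receptor IL1RL1 together with IL1RAP. Several of these genes are themselves switched on by interleukin 1, and glioma cells are known to make some of these cytokines.

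The brightest probe set of DACH1 gave 875.1 in induced against 32.5 in silenced cells labelled serum-free, and 4431.0 in induced against 126.0 in silenced cells labelled serum, a 26.9-fold and a 35.2-fold higher signal. The check rests on 1 of 3 DACH1 probe sets: another read 2.9 in induced against 12.1 in silenced cells labelled serum-free and 24.7 in induced against 23.1 in silenced cells labelled serum, and the last lay under the floor on all 4 arrays. The files hold no independent measure of the medium, so the media are called by their labels. Of 10 genes known to respond to serum that had an array of each medium at the median signal of 17.2, 6 rose and 2 fell in the medium labelled serum-free by limma. Of all 12103 fitted genes 15.4% rose and 12.7% fell, and of the 11475 with such arrays 13.8% rose and 11.9% fell. Among the 10 serum-response genes, the immediate early gene EGR1 fell 28.3-fold (limma, adjusted p = 0.0167) and the smooth muscle gene CNN1 rose 20.1-fold (adjusted p = 0.0167). With 1 residual degree of freedom, every limma call between the media given here depends on leaving out dim genes: with no such filter limma called 0 genes. Among 7 markers of glioma or astrocytes, VIM, CD44 and SLC1A3 exceeded a signal of 100 on at least 1 array, and GFAP, S100B and SOX2 lay under the floor of 10.9 on all 4. Of 9 myeloid markers none reached 100 on any array, and CD14, AIF1, SPI1 and TYROBP lay under the floor throughout. Their summed signal was 85.3 in induced and 132.5 in silenced cells labelled serum-free, and 87.9 in induced and 73.1 in silenced cells labelled serum. The ranges of the media thus overlapped for the sum. CSF1R alone of the 9 reached the median on all 4 arrays. It read 47.9 in induced and 72.2 in silenced cells labelled serum-free, against 21.9 in induced and 19.3 in silenced cells labelled serum. LYZ ran the other way but never exceeded 11.2.

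IL1B, which encodes the secreted inflammatory ligand interleukin 1 beta, had a high signal in the medium labelled serum and a low one in the other. It read 51.3 in induced and 72.8 in silenced cells labelled serum-free, against 7794.5 in induced and 7569.1 in silenced cells labelled serum. The media were far apart in either DACH1 state, 152-fold lower labelled serum-free in induced and 104-fold lower in silenced cells. The DACH1 states lay close together: the induced signal was 1.03-fold that of silenced cells labelled serum, and 1.42-fold lower labelled serum-free. The other IL1B probe set gave 176-fold and 131-fold lower signals in the medium labelled serum-free, and 6982.5 in induced against 7053.1 in silenced cells labelled serum. In bulk RNA, fewer cells that make a transcript and less of it per cell cannot be told apart.

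IL1A, the gene of interleukin 1 alpha, is a neighbour of IL1B, and its protein is active without cleavage. Its brightest probe set read 41.9 in induced and 31.5 in silenced cells labelled serum-free, against 266.4 in induced and 1030.5 in silenced cells labelled serum. Unlike IL1B, it was thus 3.87-fold lower with DACH1 induced in the medium labelled serum, and 1.33-fold higher in the other medium. The fold between the media was 6.36-fold lower in induced and 32.7-fold lower in silenced cells. Its second probe set showed neither difference and was 2.17-fold higher labelled serum-free in silenced cells, with 36.1 in induced and 59.7 in silenced cells labelled serum-free and 31.2 in induced and 27.5 in silenced cells labelled serum. The IL1A differences therefore rest on 1 probe set, and the positions of the 2 in the transcript were not compared.

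IL33 encodes a nuclear cytokine released from damaged cells. It was listed at 2.1 in induced and 0.5 in silenced cells labelled serum-free, against 2740.3 in induced and 570.6 in silenced cells labelled serum. Both signals labelled serum-free lie under the floor, so the fold between the media is a bound, at least 251-fold lower in induced and at least 52.3-fold lower in silenced cells. In the medium labelled serum the induced culture stood 4.80-fold above the silenced one, place 20 among 12190 genes ordered from the highest difference. Only 1 probe set reports IL33.

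IL18 and IL37 stayed near the floor. IL18, a ligand that, like IL1B, is cut by caspase 1, read 7.4 in induced and 20 in silenced cells labelled serum-free, and 4.3 in induced and 1.0 in silenced cells labelled serum, with 3 of 4 signals under the floor. IL37, an anti-inflammatory member of the family, read 37.8 in induced and 13 in silenced cells labelled serum-free, and 46.2 in induced and 35.3 in silenced cells labelled serum. Its 2.91-fold higher signal with DACH1 labelled serum-free comes from an _x_at probe set, a type that can bind other transcripts, and the other IL37 probe set lay under the floor on all 4 arrays. In that pair 12.4% of the genes whose brighter signal was under 50 differed by 2-fold or more in either direction. Of those from 200 to 1000, 0.0517% did, so 2-fold differences were mostly found among dim genes. Upward alone, 1.02% of all 12659 genes passed 2-fold, and IL37 took place 9 from the highest difference.

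IL1RN, the interleukin 1 receptor antagonist, followed IL1B between the media and differed from it between DACH1 states. Its brightest probe set read 110.6 in induced and 48.5 in silenced cells labelled serum-free, against 6375.0 in induced and 3406.6 in silenced cells labelled serum. This was 57.6-fold lower labelled serum-free in induced and 70.2-fold lower in silenced cells. The induced signal was 1.87-fold higher labelled serum and 2.28-fold higher labelled serum-free. IL1RN has 5 probe sets, and all 5 were higher with DACH1 in the medium labelled serum, from 1.87-fold to 3.67-fold. A second bright one read 4408.3 in induced and 1202.7 in silenced cells labelled serum, and 56.6 and 42.5 in induced and silenced cells labelled serum-free. Labelled serum-free, 3 of the 5 were bright enough to compare, and they were 1.33-fold to 2.28-fold higher with DACH1. The mean of all IL1RN probe sets gave a log2 DACH1 difference of 0.43 labelled serum-free, under 2-fold, and 1.42 labelled serum. The probe sets with both signals labelled serum-free under the floor enter the first mean as 0, which lowers it.

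**Figure D1:**
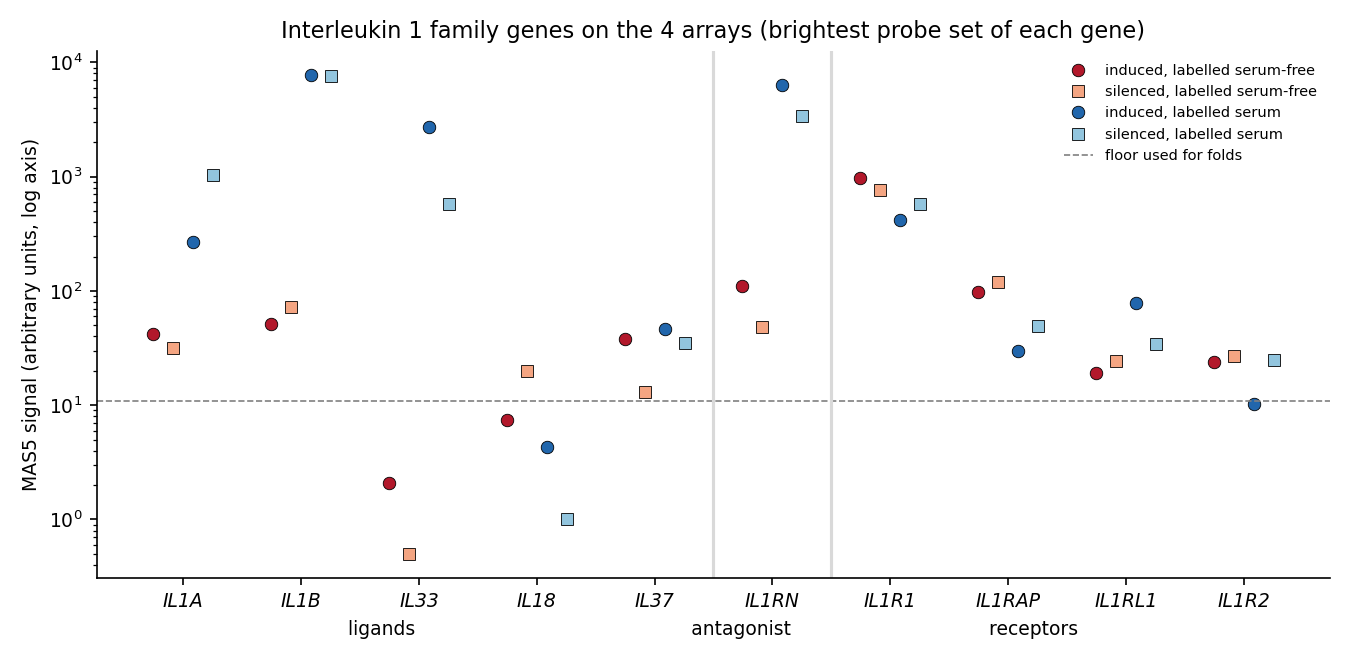
MAS5 signal (log axis) of the brightest probe set of each of the 10 genes, ligands at the left, the antagonist in the middle and receptors at the right, with 1 point per array and the floor of 10.9 as a dashed line. IL1A, IL1B, IL33 and IL1RN are high on the arrays labelled serum, IL1B with 7794.5 in induced and 7569.1 in silenced cells, and low on those labelled serum-free, while IL1R1 and IL1RAP are highest on those labelled serum-free.

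IL1A, IL1B, IL1RN and IL33, the 4 members at least 2-fold lower labelled serum-free in both DACH1 states, are shown with the 250 bases before a transcription start, as RefSeq lists it on GRCh38.p14, because NF-kB and AP-1 are the factors that interleukin 1 signalling acts through. Capitals mark a match to the AP-1 motif TGANTCA. IL1A has 2 listed starts (shown: chr2:112784494-112784743, minus strand) and IL1B has 1 (chr2:112836780-112837029, minus strand). IL1RN has 3 (shown: chr2:113117721-113117970, plus strand) and IL33 has 2 (shown: chr9:6214899-6215148, plus strand). Where a gene has several starts, the most upstream one is shown. Each sequence reads in the direction of its gene.
IL1A: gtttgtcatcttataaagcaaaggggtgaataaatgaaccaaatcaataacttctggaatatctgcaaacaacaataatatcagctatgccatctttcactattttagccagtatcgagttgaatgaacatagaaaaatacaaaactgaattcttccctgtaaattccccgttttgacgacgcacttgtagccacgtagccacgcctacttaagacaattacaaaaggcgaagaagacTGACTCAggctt
IL1B: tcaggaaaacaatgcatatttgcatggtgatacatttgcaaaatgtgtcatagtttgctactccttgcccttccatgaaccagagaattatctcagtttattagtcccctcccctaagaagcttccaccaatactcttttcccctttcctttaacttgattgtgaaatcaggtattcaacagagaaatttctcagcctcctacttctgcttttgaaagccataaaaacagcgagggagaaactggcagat
IL1RN: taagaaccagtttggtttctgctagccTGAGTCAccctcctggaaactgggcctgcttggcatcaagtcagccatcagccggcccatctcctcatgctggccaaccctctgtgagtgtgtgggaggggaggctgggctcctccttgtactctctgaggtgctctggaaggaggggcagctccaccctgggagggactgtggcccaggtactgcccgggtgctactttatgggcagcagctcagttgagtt
IL33: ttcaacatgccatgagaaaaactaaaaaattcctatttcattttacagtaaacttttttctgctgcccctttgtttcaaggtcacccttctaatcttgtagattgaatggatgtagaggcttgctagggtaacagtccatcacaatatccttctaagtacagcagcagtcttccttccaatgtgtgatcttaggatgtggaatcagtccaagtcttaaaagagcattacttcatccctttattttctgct
The search covered both strands for TGANTCA and for the NF-kB consensus, which did not overlap in these windows. Of the 10 genes, 9 had a listed promoter, with 19 starts in all. TGANTCA occurred before 4 of the 19 starts, in IL1A, IL1RN and IL1RL1, and in 6.57% of all 35116 listed promoters of this length. In IL1RN it occurred only before the start shown, and the windows of the other IL1RN starts hold no match. The NF-kB consensus occurred before 1 of the 19, in IL1R2, and in 9.96% of all listed promoters. The windows of the 2 IL1A starts overlap, so the match shown is also 1 of the 2 in the window of the other start. The IL1B and IL33 windows hold neither set of letters, which says nothing of sites outside them.

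Among the receptor genes, IL1R1 and IL1RAP had higher signals labelled serum-free. IL1R1, the signalling receptor for interleukin 1 alpha and beta, read 970.1 in induced and 757.4 in silenced cells labelled serum-free, against 413.5 in induced and 574.8 in silenced cells labelled serum. Both signals labelled serum-free exceeded both labelled serum, 2.35-fold in induced and 1.32-fold in silenced cells. The DACH1 difference ran opposite ways, 1.28-fold higher labelled serum-free and 1.39-fold lower labelled serum, each under 2-fold. The second IL1R1 probe set showed the same order, 165.2 in induced and 106.6 in silenced cells labelled serum-free against 47.9 in induced and 88.0 in silenced cells labelled serum.

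IL1RAP, the chain that IL1R1 and IL1RL1 share, had the same order of the media. It read 97.2 in induced and 118.9 in silenced cells labelled serum-free, against 29.9 in induced and 49.5 in silenced cells labelled serum. That was 3.25-fold higher labelled serum-free in induced and 2.40-fold higher in silenced cells, and the other probe set gave 3.83-fold and 3.19-fold. With DACH1 induced it was lower in both media, 1.22-fold labelled serum-free and 1.66-fold labelled serum.

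Unlike IL1R1 and IL1RAP, IL1RL1, the receptor for IL33, was lower labelled serum-free by its brightest probe set. The fold was 4.05 in induced and 1.40 in silenced cells. Its brightest probe set read 19.2 in induced and 24.5 in silenced cells labelled serum-free, against 77.7 in induced and 34.4 in silenced cells labelled serum. With DACH1 this probe set was 2.26-fold higher labelled serum and 1.28-fold lower labelled serum-free. A second probe set read 11.4 in induced and 5.5 in silenced cells labelled serum-free, against 88.0 in induced and 17.9 in silenced cells labelled serum. By their brightest probe sets IL33 and IL1RL1 thus shared their highest array, the induced culture labelled serum, though IL1RL1 never reached 100. The brightest probe sets of IL1B, IL1RN and IL37 were highest on that array too. A dim IL1RL1 probe set was instead highest in induced cells labelled serum-free, at 16.8. Of the 4 IL1RL1 probe sets, 3 could be compared labelled serum and all 3 were higher with DACH1, from 1.69-fold to 4.92-fold.

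IL1R2, the decoy receptor, read 24.1 in induced and 26.8 in silenced cells labelled serum-free, against 10.3 in induced and 24.9 in silenced cells labelled serum. The induced culture labelled serum was the low one, at least 2.28-fold below the silenced culture. The other probe set placed the same array lowest, with 1.8 against 21.7 in the silenced culture, and the remaining signals of both probe sets lay between 21.1 and 30.4. In silenced cells its log2 difference between the media was 0.11, and -0.08 with quantile normalization.

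**Figure D2:**
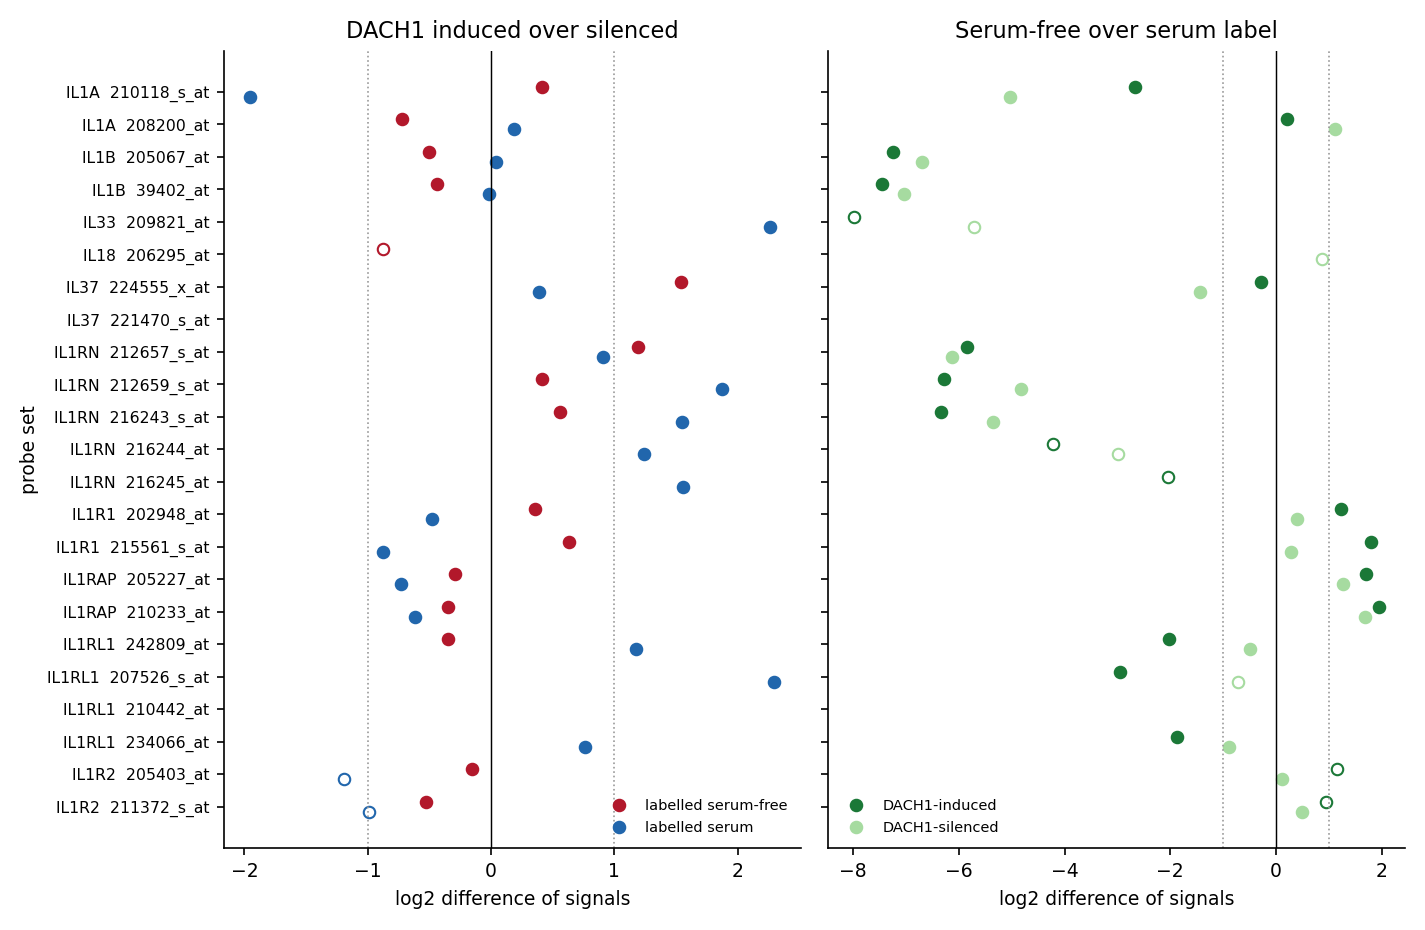
Log2 difference of signals for each of the 23 probe sets, DACH1 induced over silenced in the left panel and the serum-free over the serum label in the right panel, with open circles for bounds, dotted lines at 2-fold, and no point where neither array reached the median signal of 17.2. All IL1B and IL1RN points in the right panel lie below 0 and all IL1R1, IL1RAP and IL1R2 points above it, while the 2 IL1A probe sets lie on opposite sides.

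By the 2-fold count, with the brightest probe set of each gene, 2 of the 10 genes were higher with DACH1 in the medium labelled serum-free (IL1RN and IL37) and 0 lower. Of the 12659 genes compared there, 1.02% passed 2-fold upward and 2.73% downward, 3.74% in all. That split of 129 higher and 345 lower genes became 154 higher and 214 lower with quantile normalization. In the medium labelled serum 2 members were higher (IL33 and IL1RL1) and 2 lower (IL1A and IL1R2), where 2.91% of 12190 genes were higher and 4.77% lower, 7.69% in all. Between the media, 3 of the 10 were higher labelled serum-free in induced cells (IL1R1, IL1RAP and IL1R2) and 5 lower (IL1A, IL1B, IL33, IL1RN and IL1RL1), against 14.0% and 10.1% of 12371 genes. In silenced cells 1 was higher (IL1RAP) and 5 lower (IL1A, IL1B, IL33, IL1RN and IL37), against 15.3% and 12.2% of 12906 genes. Since these contrasts chose the genes, the counts describe them and are no evidence of a shift. Ordered from the lowest difference, IL33 and IL1B took places 1 and 2 of the 12371 genes between the media in induced cells, and IL1RN place 11. In silenced cells IL1B took place 7, IL1RN 10, IL33 15 and IL1A 27. Both IL33 places use a signal under the floor labelled serum-free, so they depend on the floor chosen. With a floor of 50 and a signal of 100, the log2 difference in induced cells was -5.78 for IL33. That of IL1B was -7.25 and that of IL1RN -5.85, so IL33 was then not the lowest. In silenced cells with that floor IL33 gave -3.51 and IL1A -4.37.

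No array is left to give an error for how the DACH1 difference depended on the medium. The log2 DACH1 difference of IL1A was 0.41 labelled serum-free and -1.95 labelled serum. That of IL1RL1 was -0.35 labelled serum-free and 1.18 labelled serum, and that of IL1R1 was 0.36 labelled serum-free and -0.48 labelled serum. IL1RN was positive in both, at 1.19 labelled serum-free and 0.90 labelled serum, and IL1RAP negative in both, at -0.29 and -0.73. These are the brightest probe sets. Other bright IL1RN probe sets gave 0.41 and 0.56 labelled serum-free, and 1.87 and 1.55 labelled serum. Which medium had the larger IL1RN difference thus depends on the probe set.

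Of the 10 genes, 7 lie on chromosome 2, in 2 clusters. The ligand cluster holds 9 protein-coding genes in the order IL1A, IL1B, IL37, IL36G, IL36A, IL36B, IL36RN, IL1F10 and IL1RN. Among its 5 genes that are not members, 3 had an array of each medium at the median, and 2 of the 3 passed limma as lower in the medium labelled serum-free. Over all such genes 11.9% were lower and 13.8% higher. IL36RN, an antagonist of the interleukin 36 receptor, read 124.0 in induced and 70.8 in silenced cells labelled serum-free, against 633.7 in induced and 294.3 in silenced cells labelled serum. Between the media it fell 4.61-fold by limma (-2.20 on the log2 scale, SE 0.19, adjusted p = 0.0170). IL36B, an agonist of that receptor, read 471.9 in induced and 298.3 in silenced cells labelled serum-free, against 1257.2 in induced and 1164.6 in silenced cells labelled serum, a 3.23-fold lower level by limma (-1.69 on the log2 scale, SE 0.23, adjusted p = 0.0225). IL1F10, the gene of interleukin 38, had signals of 9.3 in induced and 5.4 in silenced cells labelled serum-free, both under the floor, against 49.1 in induced and 25.0 in silenced cells labelled serum. It reached the fit through the arrays labelled serum alone, so its call is not used. IL36G gave a log2 difference of -0.66 (limma, adjusted p = 0.0633), and IL36A never exceeded 13.1. Within the cluster, IL37, IL36G and IL36A, which lie side by side, never exceeded 46.2 on any array.

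**Figure D3:**
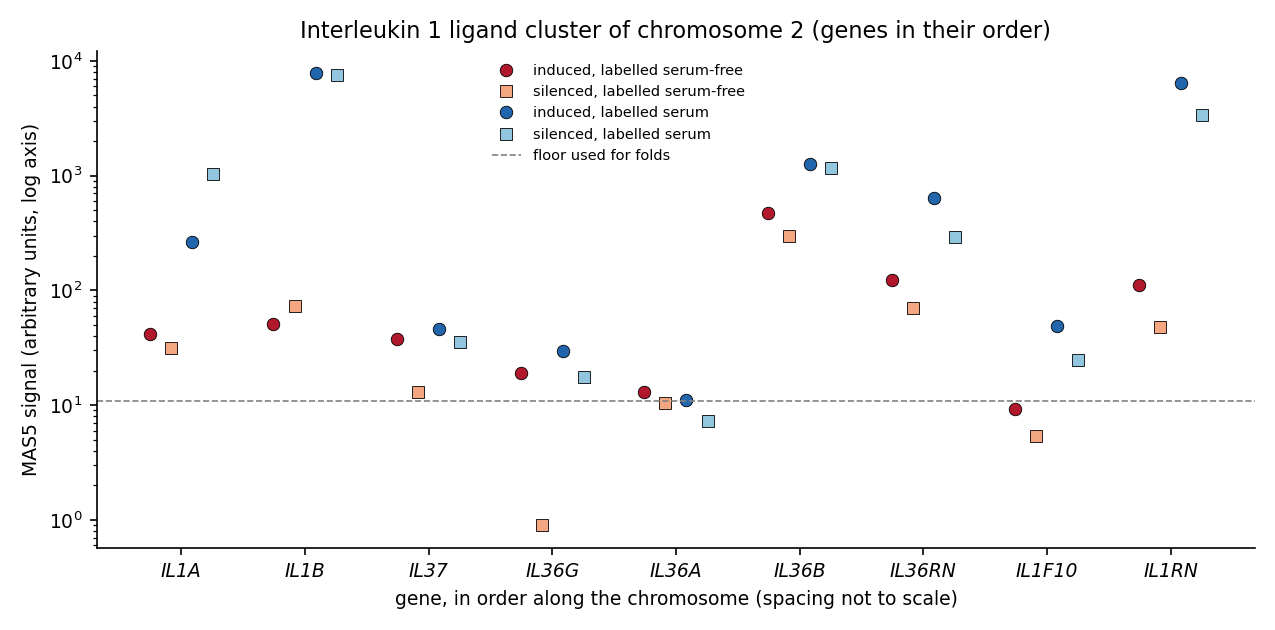
MAS5 signal (log axis) of the 9 protein-coding genes of the ligand cluster, in their order along chromosome 2, with 1 point per array and the floor of 10.9 as a dashed line. IL1A, IL1B, IL36B, IL36RN, IL1F10 and IL1RN each have both arrays labelled serum-free below both labelled serum, and IL36A stays at or under 13.1.

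The receptor cluster holds IL1R2, IL1R1, IL1RL2, IL1RL1, IL18R1 and IL18RAP. IL1RL2, the interleukin 36 receptor gene, had a highest signal of 4.9. IL18R1 reached 3.1, and IL18RAP 13.8, so the partner receptors of IL36B and IL18 were at or near the floor on every array. Among the other receptor genes SIGIRR, which restrains interleukin 1 receptor signalling, had signals of 117.5 in induced and 106.3 in silenced cells labelled serum-free and 180.1 in induced and 102.3 in silenced cells labelled serum, and none of the 3 fitted passed limma between the media.

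Of 20 genes that carry the signal downstream of the receptors, 17 entered the limma fit of medium and DACH1 state, 15 of them with an array of each medium at the median. Of the 15, 0 rose and 3 fell in the medium labelled serum-free, beside the 13.8% and 11.9% of all such genes. The median log2 difference of the 17 was -0.18 in induced and -0.34 in silenced cells, against 0.01 and 0.06 over all genes compared in those pairs. IRAK2, a kinase of the receptor complex, read 75.6 in induced and 71.2 in silenced cells labelled serum-free, against 907.2 in induced and 765.3 in silenced cells labelled serum. By limma it fell 11.4-fold (-3.51 on the log2 scale, SE 0.18, adjusted p = 0.0167). PELI2, an E3 ubiquitin ligase that acts on IRAK kinases, fell 3.24-fold (limma adjusted p = 0.0200). Its relative PELI1 read 11 in induced and 11.9 in silenced cells labelled serum-free, against 124.4 in induced and 92.9 in silenced cells labelled serum, and its other 2 probe sets were also lower labelled serum-free, by less. PELI3 read 51.0 in induced and 31.8 in silenced cells labelled serum-free, against 15.2 in induced and 13.6 in silenced cells labelled serum. PELI1 and PELI3 reached the median in 1 medium only, the one where they are high, so their limma calls are not used. TAB3, an adaptor of the kinase TAK1, fell 1.90-fold (limma adjusted p = 0.0405). The adaptor MYD88 read 374.2 in induced and 355.1 in silenced cells labelled serum-free, against 382.8 in induced and 326.5 in silenced cells labelled serum, and IRAK1 read 1492.8 and 1354.6 in induced and silenced cells labelled serum-free against 1130.8 and 1051.9 in induced and silenced cells labelled serum.

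The genes of processing and release give the enzymes that free these cytokines. Of 15, 11 were fitted, all with an array of each medium at the median. By limma 2 of the 11 rose (18.2%) and 1 fell (9.09%) in the medium labelled serum-free. That is near the 13.8% and 11.9% of all such genes. AIM2, a DNA sensor that activates caspase 1, read 92.3 in induced and 59.7 in silenced cells labelled serum-free, against 340.4 in induced and 162.6 in silenced cells labelled serum, and fell 3.17-fold (limma adjusted p = 0.0211). NLRP1 rose 1.81-fold (adjusted p = 0.0391) and the pore-forming gasdermin gene GSDMD 1.78-fold (adjusted p = 0.0489) in the same limma fit. NLRP3 and the inflammasome adaptor PYCARD lay under the floor on all arrays, with highest signals of 8.4 and 4.3. CASP1, the protease that matures interleukin 1 beta, gave no call between the media (adjusted p = 0.114 in limma). It read 50.6 in induced and 31.8 in silenced cells labelled serum-free, against 75.2 in induced and 299.7 in silenced cells labelled serum. The silenced culture labelled serum was the high one in all 5 CASP1 probe sets, and for the brightest IL1A probe set that array was the highest too, while for the other IL1A probe set it was the lowest. CASP1 lies close in sequence to CARD16, so its probe sets may share signal.

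**Figure D4:**
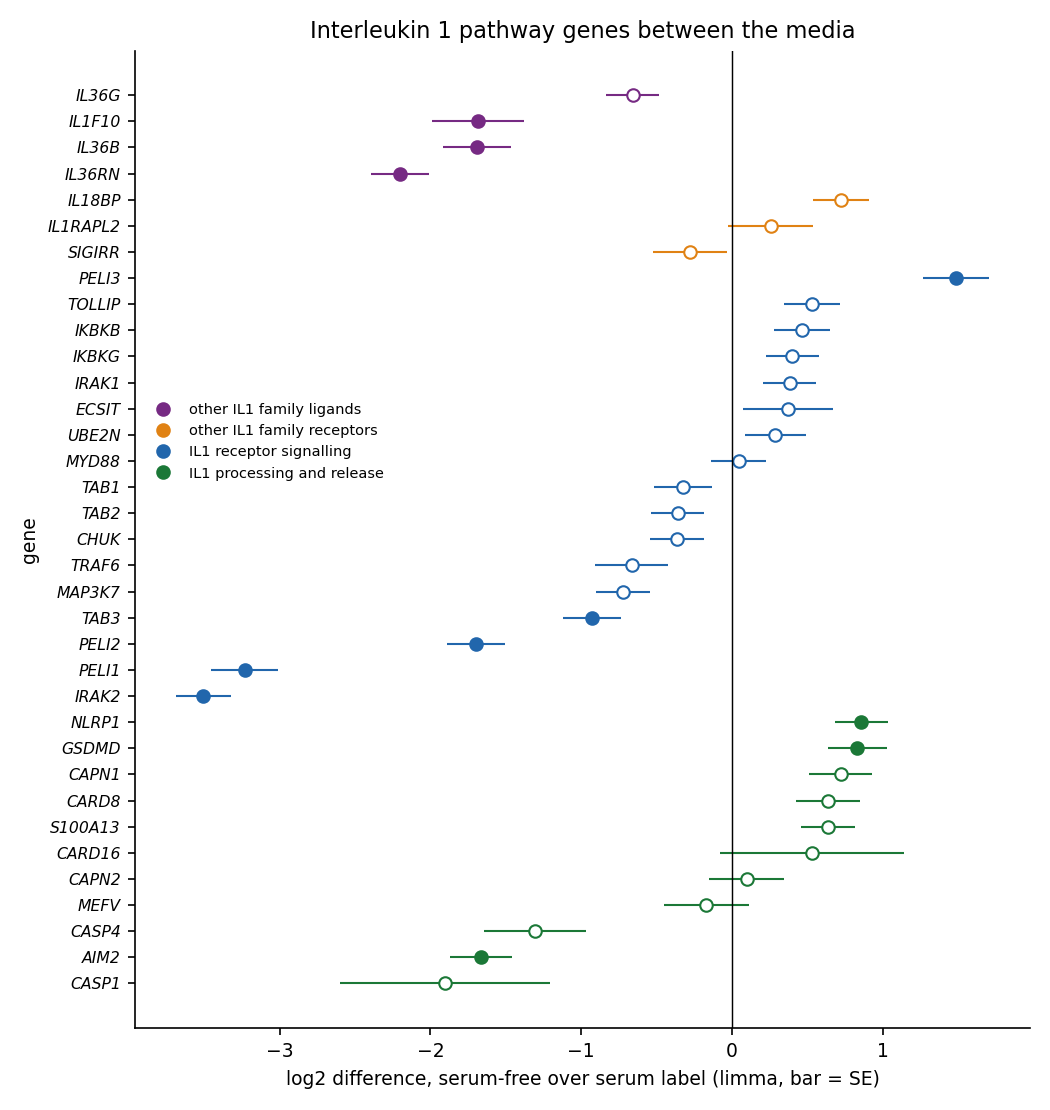
Log2 difference of the serum-free over the serum label from limma with its SE as a bar, for the 35 fitted genes of 4 lists (colours), filled where the adjusted p was under 0.05. Of the 32 with an array of each medium at the median, 2 rose and 6 fell, and the other 3 filled points, PELI1, PELI3 and IL1F10, reached the median in 1 medium only.

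Between DACH1 states limma called 0 of 12103 genes at the 0.05 level after adjustment. Before adjustment 585 genes passed 0.05. None of the pathway lists had a call. At 2-fold in the medium labelled serum, 2.91% of all genes were higher and 4.77% lower. There 1 signalling gene was higher (ECSIT) and 0 lower of 16 compared. ECSIT, an adaptor of TRAF6, read 108.6 in induced against 54.1 in silenced cells labelled serum. Of 12 processing genes 1 was higher (AIM2, 2.09-fold) and 3 lower (CASP1 3.99-fold, CASP4 2.43-fold and CARD16, at least 2.70-fold). Of 4 other ligand genes 1 was higher (IL36RN, 2.15-fold) and 0 lower. Labelled serum-free 0 of 16 signalling genes passed 2-fold, and 0 processing genes were higher and 2 lower of 11. CASP1 was 1.59-fold and CARD16 1.84-fold higher with DACH1 there, and CASP4 1.11-fold lower. Of 19 known interleukin 1 response genes compared, a list chosen with earlier results of these data known, 13 were at least 2-fold lower with DACH1 labelled serum and 0 higher, beside 4.77% and 2.91% of all genes. Labelled serum-free 1 of 15 was lower (CXCL8) and 0 higher, beside 2.73% and 1.02%. Between the media, 15 response genes had an array of each medium at the median, and by limma 9 fell and 0 rose, beside 11.9% and 13.8% of all such genes. Among the 9 by limma were the neutrophil chemokine gene CXCL8, 76.2-fold lower labelled serum-free (adjusted p = 0.0157), and the collagenase gene MMP1, 63.9-fold lower (adjusted p = 0.0157). IL6, a response gene named after its values were seen, had the largest DACH1 fold of the 19 labelled serum, 41.6-fold lower. It read 124.5 in induced against 5183.6 in silenced cells labelled serum, and 19.6 in induced against 31.6 in silenced cells labelled serum-free. The cause of the IL6 difference was not tested.

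The genes nearest to a member in pattern were sought among 12094 fitted genes, by the root mean square difference of log2 signals centred on each gene's own mean over the 4 arrays. For IL1B the nearest was IL24, a cytokine of the interleukin 10 family, at 0.09, with 12.1 in induced and 14.8 in silenced cells labelled serum-free and 1691.7 in induced and 1779.1 in silenced cells labelled serum. TCIM followed at 0.37, CSF3 at 0.47, MMP1 at 0.52 and CXCL8 at 0.56. IL24 stayed under the median of 17.2 in the medium labelled serum-free. There TCIM read 4.4 in induced and 2.3 in silenced cells, and CSF3 read 2.0 in induced and 1.8 in silenced cells. Such signals count as 10.9, so the distances of TCIM and CSF3 depend in part on that value. For IL1A the nearest were GDF15 at 0.25, DCN, the decorin gene, at 0.29 and CD274, the gene of PD-L1, at 0.31. CD274 read 96.8 in induced and 85.4 in silenced cells labelled serum-free, against 1094.7 in induced and 2802.0 in silenced cells labelled serum. For IL1RN the nearest were C9orf72 at 0.35, PI3 at 0.70 and TFPI2 at 0.73, and for IL33 they were IL24 at 0.84, C9orf72 at 0.88 and PI3 at 0.90. In the medium labelled serum-free PI3 read 3.6 in induced and 8.9 in silenced cells. C9orf72 read 15.1 in induced and 9.0 in silenced cells there. The distances of PI3 and C9orf72, and every distance to IL33, thus also depend in part on the value of 10.9. By the same measure IL1A and IL1B were 1.74 apart, IL1RN and IL33 0.77, and IL1R1 and IL1RAP 0.41. With 4 arrays, such a distance is a description of these cultures only.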

How the data were processed

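The deposited values are linear signal intensities, 1 value per probe set and array, from MAS5 (named in the submitters' processing notes, per the labels); version and scaling target: not given in the sources used here. All 4 arrays have trimmed means from 99.63 to 99.65, so the authors' values carry 1 scaling per array. MAS5 subtracts an estimated background, so low signals are noisy, and the number of arrays limits every value.

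Probe sets with 1 gene in GEO's platform annotation were named (41091 of 54613, 1801 with several genes and 11721 unlisted), with symbols updated through Entrez identifiers for 99.9%. The brightest probe set stood for a gene. Signals under the 40th percentile (10.9) were set to it before log2. A pair of arrays was compared where 1 reached the median signal (17.2), and counted at 2-fold. Limma (lmFit, eBayes, Benjamini-Hochberg) took genes with 2 such arrays, with DACH1 state and medium as terms. It has 1 residual degree of freedom, its error is the interaction of single arrays, so a p-value reflects the spread among these 4 arrays alone. It was also run on simulated data with independent noise, no DACH1 effect and no interaction. That run cannot show how an interaction in the real arrays affects the calls given here. Members got no p-value. List counts between the media were limited, after seeing the data, to genes with an array of each medium at the median, in the same fit.

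Members and lists were chosen with earlier results of these data known. Named genes were DACH1, the members, up to 4 genes per list past 2-fold in both pairs of a factor (or the brightest), and the nearest patterns; others were named after their values were seen (CASP1, CASP4, CARD16, MYD88, ECSIT, IL6, TAB3, NLRP1, GSDMD, NLRP3, PYCARD, IL36G, IL36A and the other receptors). Of 8 lists, the housekeeping genes had a median log2 difference between the media of 0.22 in induced and 0.38 in silenced cells, and cholesterol synthesis -0.58 and 0.33. Fits ran in limma 3.58.1 under R 4.3.3, tables and figures in Python 3.11.15 with matplotlib 3.10.9, numpy 2.4.6 and pandas 2.3.3.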

Additional observations from a re-analysis of the deposited data

Results flagged for a closer look

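IL1A moved in opposite directions with DACH1 in the media: its log2 difference was 0.41 labelled serum-free and -1.95 labelled serum, by 1 of its 2 probe sets; labelled serum-free the other gave -0.73. The brightest IL1RL1 probe set did so the other way, at -0.35 labelled serum-free, from dim signals of 19.2 in induced and 24.5 in silenced cells, and 1.18 labelled serum. Of the other 3, not bright enough to compare labelled serum-free, 2 gave positive values there (0.06 and 0.62). Each value compares 1 array with 1 array, and whether the differences depend on the medium was not tested.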

How the results depend on the processing

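Of 268 recomputed differences of members, 253 kept their side of 2-fold by size, whatever the direction, and 6 changed sign. The 253 include IL1A between the media in silenced cells, which turned from -5.03 to 1.12. Part of this agreement was fixed in advance. The 2 settings that alter only the filter leave each value as it was. Probe-set settings cannot move IL33 or IL18, with 1 probe set each. Differences that a setting dropped are not counted. Without _x_at and _s_at probe sets all 4 IL1A differences turned, to -0.73 with DACH1 labelled serum-free (-0.16 with the mean of all probe sets), to 0.18 with DACH1 labelled serum and, between the media, to 0.21 in induced and 1.12 in silenced cells, because its other probe set then stands for it. The other change of sign was IL1R2 between the media in silenced cells, -0.08 with quantile normalization. The 4 members past 2-fold with DACH1 labelled serum were 2 with a pseudocount equal to the floor and 2 with a floor of 50 and a signal of 100. The 2 labelled serum-free were 1 with that higher floor, 1 with every array above the median, 1 without _x_at and _s_at probe sets and 0 with the mean of all probe sets. Between the media in induced cells 8 became 5 with the higher floor.

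Over all genes, the higher floor gave 11 past 2-fold with DACH1 labelled serum-free (474 as reported), 425 labelled serum (937), 1929 between the media in induced (2987) and 2280 in silenced cells (3552). With every array above the median the DACH1 counts were 87 labelled serum-free and 579 labelled serum. Labelled serum-free it was also 808 with no floor, 294 with the pseudocount and 246 with the mean of probe sets. Limma's 3396 calls between the media were 2013 with no floor and 0 with no filter. The 11 pathway calls stayed between 8 and 13 except for 0 with no filter. Those 11 include the unused calls of PELI1, PELI3 and IL1F10, and the calls without them were not recounted across settings. Its 0 calls for DACH1 became 1 with every array above the median and 1 with a trend in the variance prior. The cause of these changes was not tested. No paired analysis was possible because each condition has 1 array. Leaving out an array leaves no residual degree of freedom and was not run.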
